A study of Mus musculus with 17 samples.

Results

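Thalamic relay neurons are the glutamatergic cells that carry sensory and motor information from the thalamus to the cerebral cortex. They load their vesicles with the transporter encoded by Slc17a6 (VGLUT2), keep expressing the Wnt effector Tcf7l2 after development, and guide their axons with molecules such as the netrin-G1 encoded by Ntng1. They are known for firing in bursts, which low-voltage-activated calcium channels support. The thalamic-type excitatory neurons described here were nuclei of the posterior mouse brain that carried the deposited label Neurons, were not a deposited doublet call, lay outside deposited cluster 13, and held 2 or more UMIs (unique molecular identifiers, each standing for 1 captured RNA molecule) of Slc17a6, 3 or more of Tcf7l2 and at most 1 of the GABA-synthesis genes Gad1 and Gad2 together. This rule took 2288 nuclei out of 142659 neurons that it could have taken and out of 284074 nuclei in all. The members were chosen by measured values, the UMIs of Slc17a6, Tcf7l2, Gad1 and Gad2, so those levels are a description and not a result.

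The study gave female mice aged 2.3 months, carrying the human transferrin receptor (TfR) as a homozygous knock-in, intravenous doses of an antisense oligonucleotide (ASO) against Malat1, a long noncoding RNA retained within nuclei. Each animal received 4 doses over a treatment of 24 days, and tissue was taken 72 h after the last. The 4 groups were Saline (n = 4), free Malat1 ASO at 2 mg per kg (n = 4), TfR-Malat1, the oligonucleotide on an anti-TfR antibody, at 50 mg per kg (n = 6), and OTV:Malat1, the oligonucleotide on an engineered Fc domain that binds TfR, at 50 mg per kg (n = 3). The dose field of the Saline animals also reads 50 mg per kg, although their treatment field names saline alone, and the labels do not say what that dose refers to. The knock-in was shared by all groups, saline included, so no group carried the unmodified mouse receptor. Nuclei were dounced from frozen tissue, stained with DAPI, sorted and captured with the 10x Genomics droplet system, 1 library per animal.

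Libraries held 13841 to 18365 nuclei and 55393588 to 79866411 UMIs. The deposited table gave 4 batches of unstated meaning, each with 1 saline and 1 Malat1 ASO animal; OTV:Malat1 was in batches 2, 3 and 4 only. Each library gave 85 to 202 members. Median UMIs per member ranged from 5267.5 to 9272 across animals, and those of all eligible neurons from 3626 to 6070. Within every animal the member median was the higher. A rule on raw UMIs takes deep nuclei more readily than shallow ones. Of the 2287 barcodes among the members, 1 occurred in 2 libraries. Saline replicate 4 and Malat1 ASO replicate 4 were in batch 4, and TfR-Malat1 replicate 1 was in batch 1. Each had the lowest Malat1 share of its group in every neuron set examined. TfR-Malat1 replicate 3 stood apart by its makeup, described below. Malat1 is the target, yet Saline replicate 4 was low in it, at 3.13% of member UMIs. Malat1 ASO replicate 4, of the same batch, stood at 3.26%, and the cause was not tested. The labels of all libraries were kept as given and whether they are right was not tested, so the group means and overlaps below rest on them. Tests of Malat1 were repeated with each animal left out, and the values without these animals are given where they bear on a comparison.

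The label was checked against its markers, and it held for most members but not for all. Deposited cluster 12 contained 1744 members (76.2%), which were 31.2% of the 5597 eligible nuclei of that cluster. Clusters 1 and 4 contained 307 and 234 members (13.4% and 10.2%), and 3 members lay in clusters 14 and 18. Levels are given as CPM, the UMIs of a gene scaled to the summed UMIs of the set in the same animal so that 10000 CPM is 1% of them, as the median over 17 animals. The clusters were made by the authors from these nuclei, so differences between clusters are described without a test. Ntng1 stood at 4572 CPM in the cluster 12 members and at 1190 CPM in the members of clusters 1 and 4, against 794.6 CPM in other Slc17a6 neurons (3218 nuclei with Slc17a6 at 2 or more and Tcf7l2 at most 1) and 274.1 CPM in cortical-type neurons (19677 nuclei with Slc17a7, encoding VGLUT1, at 2 or more and no Slc17a6). Lef1, which belongs with Tcf7l2 to the TCF/LEF family of Wnt effectors that bind beta-catenin, stood at 861.7 CPM in the cluster 12 members, 46.8 CPM in those of clusters 1 and 4, 82.4 CPM in other Slc17a6 neurons and 1.15 CPM in cortical-type neurons. Plekhg1, a guanine nucleotide exchange factor gene, stood at 1288 CPM against 9.96 CPM in the 2 kinds of member. Prkcd, encoding protein kinase C delta, a marker of sensory thalamic nuclei, was at 314.2 CPM in the cluster 12 members and had a median of 0 in those of clusters 1 and 4. The 541 members of clusters 1 and 4 are therefore called here by their cluster numbers and given no cell type name.

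**Figure D1:**
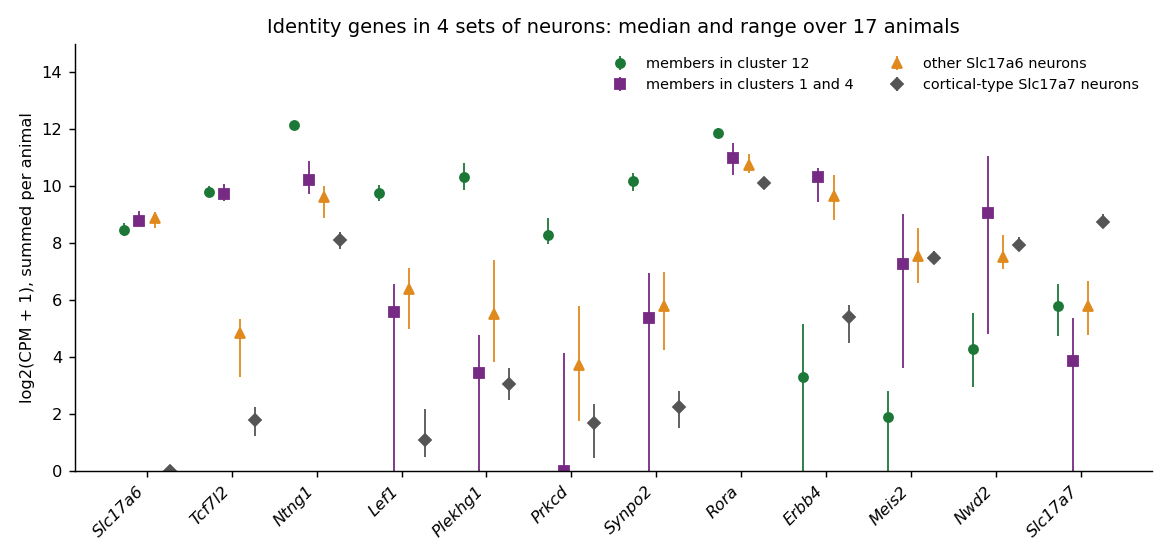
Level of 12 genes on the log2(CPM + 1) scale (vertical axis) in the cluster 12 members, the members of clusters 1 and 4, other Slc17a6 neurons and cortical-type neurons; each marker is the median over 17 animals and each bar runs from the lowest to the highest animal. Lef1, Plekhg1, Prkcd and Synpo2 are highest in the cluster 12 members among these 4 sets, while Erbb4, Meis2 and Nwd2 are higher in the members of clusters 1 and 4 than in those of cluster 12.

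Some genes were higher in the members of clusters 1 and 4 than in those of cluster 12. Erbb4, the neuregulin receptor gene, was at 1275 CPM in them against 8.98 CPM in the cluster 12 members, lower in cluster 12 in 17 of 17 animals. Meis2, a homeobox gene, was at 153.7 CPM against 2.75 CPM, and Nwd2 at 538.1 CPM against 18.5 CPM. Only 22.9% of the members of clusters 1 and 4 had a UMI of Meis2, and 33.6% had one of Nwd2. In other Slc17a6 neurons the shares were 26.6% and 35.1%, so having a UMI of either gene was not particular to these members. By level they differed: pooled over nuclei, Nwd2 stood at 663.2 CPM in these members and at 183.1 CPM in other Slc17a6 neurons. Meis2 stood at 206.6 and 202.3 CPM. Tfap2d, Klhl1, Ebf3 and Rerg were also lower in the cluster 12 members in every animal. The 9 habenula genes listed summed to 6.71 to 49.4 CPM over animals in the cluster 12 members and to 41.0 to 2406 CPM in those of clusters 1 and 4. That sum was nearly all Nwd2: the habenula-defining genes Gpr151 and Chrnb4 had a median of 0 in both kinds, and Pou4f1 stood at 9.62 CPM in clusters 1 and 4. Pou4f1 had a UMI in 6.28% of the members of clusters 1 and 4 and in 1.46% of other Slc17a6 neurons. The 11 genes listed for tectum and other midbrain summed to 0 to 8.11 CPM in the cluster 12 members and to 29.9 to 568.1 CPM in those of clusters 1 and 4. Of these only Meis2 and Tfap2b (17.5 CPM), both transcription factor genes, had a median above 0 in clusters 1 and 4, and Pax7, Lhx1, Otx2 and Gata3 were at 0. In TfR-Malat1 replicate 3, 30 of 90 members (33.3%) were in cluster 12, against 65.3% to 90.6% in the other 16 animals, and Lef1 in all its members was 363.8 CPM against 601.7 CPM or more in every other animal. Members just inside the thresholds, with exactly 2 UMIs of Slc17a6 and 3 of Tcf7l2 (252 nuclei), were 46.4% in cluster 12 and had 388.7 CPM of Lef1. Nuclei just outside, with 1 UMI of Slc17a6 and 3 of Tcf7l2 (520 nuclei) or 2 of each (271 nuclei), were 46.7% and 43.9% in cluster 12, with 440.9 and 389.2 CPM of Lef1, close to the members just inside.

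The levels that follow are descriptions of the members beside other neurons, with no test. The 25 genes with the highest ratio to all other eligible neurons, at 50 CPM or more, were led by Synpo2 (993.0 CPM, range over animals 474.7 to 1335, against 55.3 CPM), encoding an actin-binding protein, and by Plekhg1 (1085 CPM against 60.6 CPM). The others in that list with known roles in signalling included Prkcd, Prkch, Vipr2 (the receptor of vasoactive intestinal peptide, 68.4 CPM against 5.14 CPM), Grin2c (an NMDA receptor subunit, 65.2 CPM against 4.59 CPM), Bmp6 (a bone morphogenetic protein, 73.8 CPM against 8.08 CPM), Vav3 (1355 CPM against 135.0 CPM) and the planar polarity gene Vangl1. Tcf7l2 and Slc17a6, which the rule used, were in it too. Of the 21 listed thalamic identity genes, 16 outside the rule were high enough to enter the counts of direction (20 CPM or more in members and other Slc17a6 neurons together, a limit that some lower genes named below miss). Of these, 12 were higher in the members than in other Slc17a6 neurons in all 17 animals and 0 were lower in all. Over all 9291 genes of that level outside the rules, 7.32% were higher in all 17 animals and 10.6% were lower. Against cortical-type neurons, over the 9134 genes of 20 CPM or more in the members and those neurons together, 15% were higher and 15.3% lower. The gene lists were chosen with earlier results of these data known, and the identity list holds Ntng1, Synpo2 and Plekhg1. Both comparison sets were limited to 1 UMI of Tcf7l2, so genes that go with Tcf7l2 can be higher through the choice of nuclei. These counts describe the members and do not test their name. The transcription factor genes Zic1 (53.5 CPM against 10.3 CPM), Zic4 (26.5 against 3.84 CPM) and Shox2 (48.6 against 7.41 CPM), known from thalamic development, were among the low but higher ones. Gbx2, a regulator of thalamic differentiation in the embryo, stood at 1.49 CPM, and Calb2 at 6.94 CPM, below the 13.5 CPM of other Slc17a6 neurons.

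Nuclei of 1000 or more UMIs were also thinned at random to 1000, so that nuclei of different depth could be compared, and shallower ones were left out. None of the members was left out, against 2 of the other Slc17a6 neurons, 18 of the cortical-type neurons and 18525 of 71388 oligodendrocytes, so that the oligodendrocyte shares cover the deeper 52863 nuclei. At that depth Lef1 had a UMI in 40.9% of members, in 5.97% of other Slc17a6 neurons and in 0.284% of oligodendrocytes, which should lack it. Before thinning the median depths were 7100, 4807.5 and 1249 UMIs. Prkcd had a UMI in 25.1% of thinned cluster 12 members, in 0.185% of those in clusters 1 and 4 and in 0.405% of oligodendrocytes. Plekhg1 did not set the members apart from oligodendrocytes, with a UMI in 48.4% of thinned members and 47.7% of thinned oligodendrocytes. Tcf7l2, which the rule used, had a UMI in 58.5% and 9.30%. Transcripts of other cell types were low: the myelin gene Mbp had a UMI in 2.19% of thinned members and in 97.5% of thinned oligodendrocytes. The 6 oligodendrocyte genes listed summed to 35.5 to 185.4 CPM over the 17 animals and the 6 vascular ones to 0 to 7.05 CPM. Among astrocyte genes Slc1a2 stood at 236.4 CPM, close to the 244.3 CPM of all other neurons, while Aqp4 and Gja1 were under 1 CPM. Of the 9 cortical genes listed, which summed to 503.6 to 714.5 CPM over animals, 4 stood at 10 CPM or more in the members. Cux2, a homeobox gene, was higher in the members than in cortical-type neurons in all 17 animals (238.0 CPM against 120.2 CPM), and Mef2c (285.3 CPM against 802.1 CPM) and Nrgn (36.8 CPM against 223.8 CPM) were lower in all. Neurod2 was at 1.36 CPM against 43.5 CPM in cortical-type neurons and Tbr1 at 1.19 CPM against 13.6 CPM.

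Among ion channels the members combined a high level of some calcium channel genes with a low level of others. Cacna1g, encoding the T-type channel Cav3.1 that supports thalamic bursts, stood at 145.9 CPM, against 55.7 CPM in other Slc17a6 neurons and 31.8 CPM in cortical-type neurons, and was higher in 17 of 17 animals in both comparisons. The other T-type genes were lower in every animal: Cacna1i stood at 12.02 CPM against 46.7 and 44.7 CPM, and Cacna1h at 1.75 CPM against 16.2 and 18.01 CPM. The L-type gene Cacna1c stood at 2284 CPM against 750.4 and 731.3 CPM. Cacna1e, encoding the R-type channel, was at 135.0 CPM against 443.7 and 744.0 CPM. It was at 60.7 CPM in the cluster 12 members and at 498.2 CPM in those of clusters 1 and 4. The pacemaker genes Hcn2 and Hcn4 stood at 58.9 and 10.6 CPM, above the cortical-type level (39.7 and 0.743 CPM) in every animal.

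Receptor genes were likewise higher for some and lower for others. Grm4, a metabotropic glutamate receptor gene, stood at 103.6 CPM in the members against 32.6 CPM in other Slc17a6 neurons and 10.1 CPM in cortical-type neurons, and at 115.9 CPM in cluster 12 against 27.3 CPM in clusters 1 and 4. The AMPA receptor genes Gria1 (409.9 CPM against 683.9 and 1341 CPM) and Gria2 (534.0 CPM against 1034 and 1427 CPM) were lower in every animal, while Gria4 (1362 CPM against 1162 and 845.4 CPM) was higher in 15 and 17 of the 17 animals. Among the 14 GABA receptor genes, Gabra4 (447.2 CPM against 98.7 and 159.1 CPM) and Gabrd (90.4 CPM against 16.6 and 31.7 CPM), which together form receptors outside the synapse in the thalamus, were higher in every animal. Gabra2 (138.4 CPM against 334.2 and 422.3 CPM) and Gabra5 (24.5 CPM against 62.2 and 92.0 CPM) were lower in every animal. Outside the rules, 7 of 23 glutamate genes, 5 of 14 GABA receptor genes and 6 of 19 channel genes were higher than in other Slc17a6 neurons in all 17 animals, and 5, 5 and 4 were lower in all, beside the 7.32% and 10.6% of all genes. Against cortical-type neurons 11, 6 and 3 were higher and 11, 4 and 6 were lower in all, beside 15% and 15.3%.

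**Figure D2:**
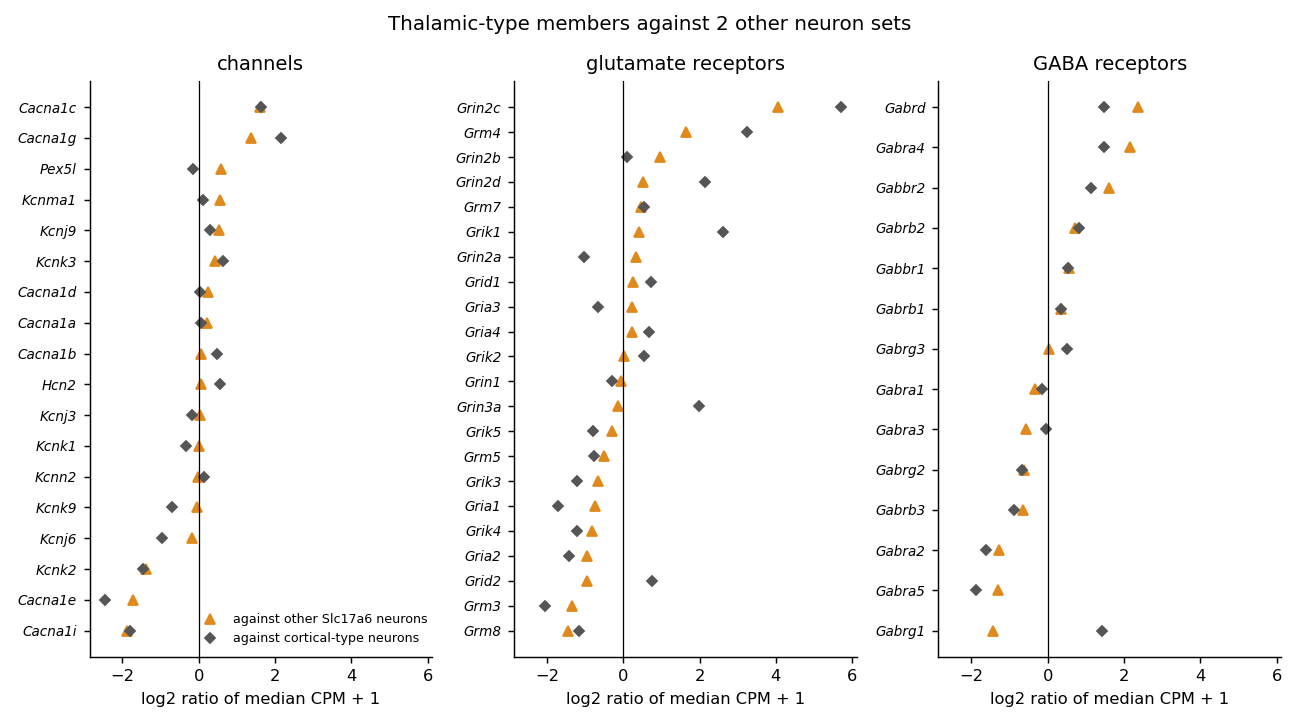
Log2 ratio of the median CPM + 1 over 17 animals (horizontal axis) of selected channel, glutamate receptor and GABA receptor genes in the members to that in other Slc17a6 neurons (triangles) and in cortical-type neurons (diamonds). Cacna1c, Cacna1g, Grin2c, Grm4, Gabrd and Gabra4 lie to the right of 0 in both comparisons, and Cacna1e, Cacna1i, Grm3, Gabra2 and Gabra5 to the left in both.

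Of the 13 Wnt pathway genes outside the rule that could be compared, 5 were higher than in other Slc17a6 neurons in all 17 animals and 2 were lower in all, beside the 7.32% and 10.6% of all genes. Against cortical-type neurons 7 were higher and 3 lower in all, beside 15% and 15.3%. Besides Lef1, those higher than in other Slc17a6 neurons were Znrf3 (128.0 against 66.7 CPM), encoding a feedback inhibitor of the pathway, Lgr4 (107.4 against 62.4 CPM) and Lgr5 (34.1 against 14.9 CPM), encoding R-spondin receptors, and Ctnnb1. Ctnnb1, encoding beta-catenin, was at 61.8 CPM against 35.4 CPM. The corepressor gene Tle4 (57.4 against 119.1 CPM) and Dkk3 (4.03 against 51.2 CPM) were lower in every animal. Immediate early genes, which neurons switch on after activity, included 10 that could be compared: 6 were lower in the members than in other Slc17a6 neurons in all 17 animals, beside 10.6% of all genes, 0 were higher in all, and 4 were neither. Homer1 stood at 72.3 CPM against 230.8 CPM, Arc at 0.87 CPM against 15.1 CPM and Nr4a2 at 2.43 CPM against 37.2 CPM. Fos stood at 11.4 CPM in the members and 21.8 CPM in other Slc17a6 neurons.

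Malat1, the target of the oligonucleotide, lies on chromosome 19 (mm10, 5795690 to 5802672, minus strand, annotated as a lincRNA). It made up 4.57% of the members' UMIs at the median animal, 4.62% in other Slc17a6 neurons and 6.89% in cortical-type neurons. The members lay below cortical-type neurons in 17 of 17 animals and below other Slc17a6 neurons in 16 of 17. Among nuclei of 4000 or more and fewer than 10000 UMIs, where depths were closer, the members were lower in 17 and 15 of 17 animals. Members of cluster 12 and of clusters 1 and 4 were close to each other, at medians of 4.71% and 4.16%.

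The question of the study was whether the carrier of the oligonucleotide changes how far Malat1 falls. In the members Malat1 took 5.34%, 4.70%, 5.30% and 3.13% of UMIs in the Saline animals. It took 5.07%, 4.68%, 5.26% and 3.26% in the Malat1 ASO animals, nearly the same values in the same batches. In TfR-Malat1 the 6 animals ranged from 3.27% to 5.09%, with a median of 4.43%. In OTV:Malat1 the values were 3.31%, 3.23% and 2.78%. The 3 OTV:Malat1 animals were thus low and close together, but Saline replicate 4, Malat1 ASO replicate 4 and TfR-Malat1 replicate 1 lay within or near their range, so the groups overlapped. Saline averaged 4.62% ± 1.04 (SD, n = 4), Malat1 ASO averaged 4.57% ± 0.907 (SD, n = 4) and TfR-Malat1 averaged 4.38% ± 0.682 (SD, n = 6). OTV:Malat1 averaged 3.11% ± 0.290 (SD, n = 3), which was 67.3% of the Saline mean. The 95% Wilson interval for counting error of 1 animal's share was at most 0.124 percentage points wide. It takes each UMI as an independent draw and leaves out the spread between nuclei. It is therefore too narrow to measure the error of an animal's share.

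**Figure D3:**
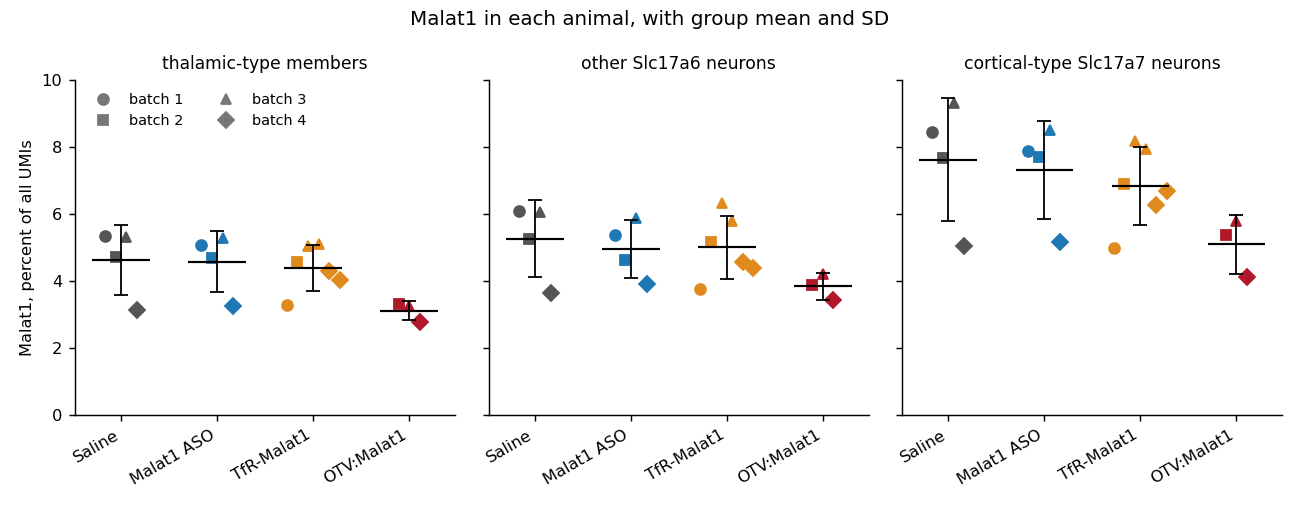
Malat1 as a percent of all UMIs (vertical axis) in each animal, in the thalamic-type members, other Slc17a6 neurons and cortical-type neurons; points are animals, shapes are deposited batches, and black lines are group means with SD. The OTV:Malat1 animals sit between 2.78% and 3.31% in the members, and the low animal of Saline and of Malat1 ASO is the one of batch 4 in all 3 sets.

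Across all genes, none of the 4 comparisons called Malat1. The test was edgeR's quasi-likelihood test over the members' UMIs summed per animal, with Benjamini-Hochberg adjustment over 10259 genes. The log2 fold change of OTV:Malat1 against Saline was -0.60 (SE 0.17, edgeR adjusted p = 1.00, unadjusted p = 0.00162). That of OTV:Malat1 against TfR-Malat1 was -0.54 (SE 0.16, edgeR adjusted p = 0.327, unadjusted p = 0.00241). TfR-Malat1 and Malat1 ASO differed from Saline by -0.06 (SE 0.14) and 0.02 (SE 0.16), less than the spread between animals. Without Saline replicate 4 these were -0.20 (SE 0.14) and -0.12 (SE 0.15). Without TfR-Malat1 replicate 1 the first was 0.009, and without Malat1 ASO replicate 4 the second was 0.14. The 3 comparisons against Saline share the same 4 control animals.

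Tested as a single value, the log2(CPM + 1) of Malat1 was lower in OTV:Malat1 than in Saline by a mean difference of -0.54 (exact two-sided permutation p = 0.171, adjusted p = 0.490 over 20 tests), with 1 of 3 animals below every Saline animal. Against TfR-Malat1 the difference was -0.48 (exact p = 0.0476, adjusted p = 0.381), with 2 of 3 below every TfR-Malat1 animal. Within batches 2, 3 and 4 OTV:Malat1 was lower than TfR-Malat1 by -0.46, -0.64 and -0.58, and lower than Saline by -0.51, -0.71 and -0.17. Animals permuted only within batches gave mean differences of -0.56 against TfR-Malat1 (exact p = 0.111) and -0.46 against Saline (exact p = 0.25), each the smallest p that this design allows. Without Saline replicate 4 the difference from Saline was -0.72 (exact p = 0.1, the smallest possible), and without TfR-Malat1 replicate 1 that from TfR-Malat1 was -0.56 (exact p = 0.0357). Leaving out another TfR-Malat1 or any OTV:Malat1 animal raised the exact p of that comparison to between 0.0714 and 0.143. With 1 OTV:Malat1 animal fewer, 0.0714 is the smallest possible. Over all animals left out in turn the difference stayed between -0.56 and -0.40. TfR-Malat1 went both ways against Saline within batches, by -0.71, -0.04, -0.07 and 0.41 for batches 1 to 4.

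No difference between the members and other neurons in the size of the change passed the adjustment. Within each animal, the log2(CPM + 1) of Malat1 in the members minus that in other Slc17a6 neurons was taken. It averaged -0.19 ± 0.02 (SD, n = 4) for Saline animals and -0.30 ± 0.08 (SD, n = 3) for OTV:Malat1 animals, a difference of -0.11 with 3 of 3 animals below every Saline animal (exact p = 0.0571, the smallest possible, adjusted p = 0.381). Against cortical-type neurons the same measure averaged -0.72 ± 0.07 (SD, n = 4) for Saline animals and -0.70 ± 0.14 (SD, n = 3) for OTV:Malat1 animals, a difference of 0.02 (exact p = 0.971). Malat1 in OTV:Malat1 stood at 72.8% of the Saline mean in other Slc17a6 neurons and at 66.8% in cortical-type neurons, beside the 67.3% in the members. Within the members it stood at 66.1% in cluster 12 and 75.2% in clusters 1 and 4. Without Saline replicate 4 these were 66.0% in other Slc17a6 neurons, 60.1% in cortical-type neurons, 60.7% in the members, 59.6% in cluster 12 and 68.7% in clusters 1 and 4.

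Malat1 was also followed nucleus by nucleus. After thinning to 1000 UMIs the median member held 44.9 Malat1 UMIs in Saline (mean of animal medians, range 30 to 52) and 30.7 in OTV:Malat1 (27 to 33). The 10th percentile was 28.4 (18.2 to 34) in Saline and 17 (15 to 19) in OTV:Malat1, and the 90th was 67.7 (47.9 to 80.7) and 49.2 (48.6 to 50). The ratio of the 90th to the 10th percentile was 2.63, 2.88 and 3.24 in the OTV:Malat1 animals, and 2.15 to 2.63 in Saline, 2.16 to 2.46 in Malat1 ASO and 2.11 to 2.67 in TfR-Malat1. In cortical-type neurons it was 2.89 to 3.07 in OTV:Malat1 and 1.98 to 2.47 in Saline. In other Slc17a6 neurons it was 2.94 to 3.01 and 2.57 to 2.94, so a high ratio was not particular to the members. Saline replicate 4 (2.63) and TfR-Malat1 replicate 1 (2.67), low in Malat1, had the highest member ratios of their groups. Malat1 ASO replicate 4 (2.40) did not. The part of the Malat1 level in the ratio was not tested. Members with 25 or fewer Malat1 UMIs at this depth, a limit set at the 10th percentile of the Saline members with animals weighted equally, are called low in Malat1. They were 0.518%, 3.42%, 4.84% and 33.3% of members in the Saline animals and 2.16%, 4.69%, 2.00% and 25.8% in the Malat1 ASO animals. In TfR-Malat1 they were 28.6%, 5.33%, 2.22%, 5.00%, 6.09% and 9.41%, and in OTV:Malat1 31.0%, 29.3% and 42.4%.

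The mean low share was 34.2% ± 7.10 (SD, n = 3) in OTV:Malat1 and 9.44% ± 9.65 (SD, n = 6) in TfR-Malat1, a difference of 24.8 percentage points with 3 of 3 animals above every TfR-Malat1 animal (exact p = 0.0238, the smallest possible, adjusted p = 0.381). Without any 1 OTV:Malat1 animal it was 20.7 to 27.2 points (exact p = 0.0714 each, the smallest possible with 1 animal fewer). Within batches the difference was 25.7, 25.7 and 34.6 points (exact p = 0.111 within batches, the smallest possible). Against Saline, at 10.5% ± 15.3 (SD, n = 4), it was 23.7 points (exact p = 0.171), or 31.3 points without Saline replicate 4 (exact p = 0.1, the smallest possible), with the limit still set on all 4 Saline animals. In Saline replicate 4, 34 of 102 members were low, against 1 of 193, 5 of 146 and 6 of 124 in the others. With the limit set on the other 3 Saline animals, and all animals kept, the difference was 30.2 points from Saline (exact p = 0.171) and 31.4 points from TfR-Malat1 (exact p = 0.0476). Wilson intervals of single animals were 2.78 to 20.6 points wide. Of the members in the OTV:Malat1 animals, most stayed above the limit. The limit lies at the 10th percentile of Saline members, so this cannot say how many members had less Malat1. The mean median and 90th percentile were lower than in Saline too (30.7 against 44.9 and 49.2 against 67.7 UMIs).

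**Figure D4:**
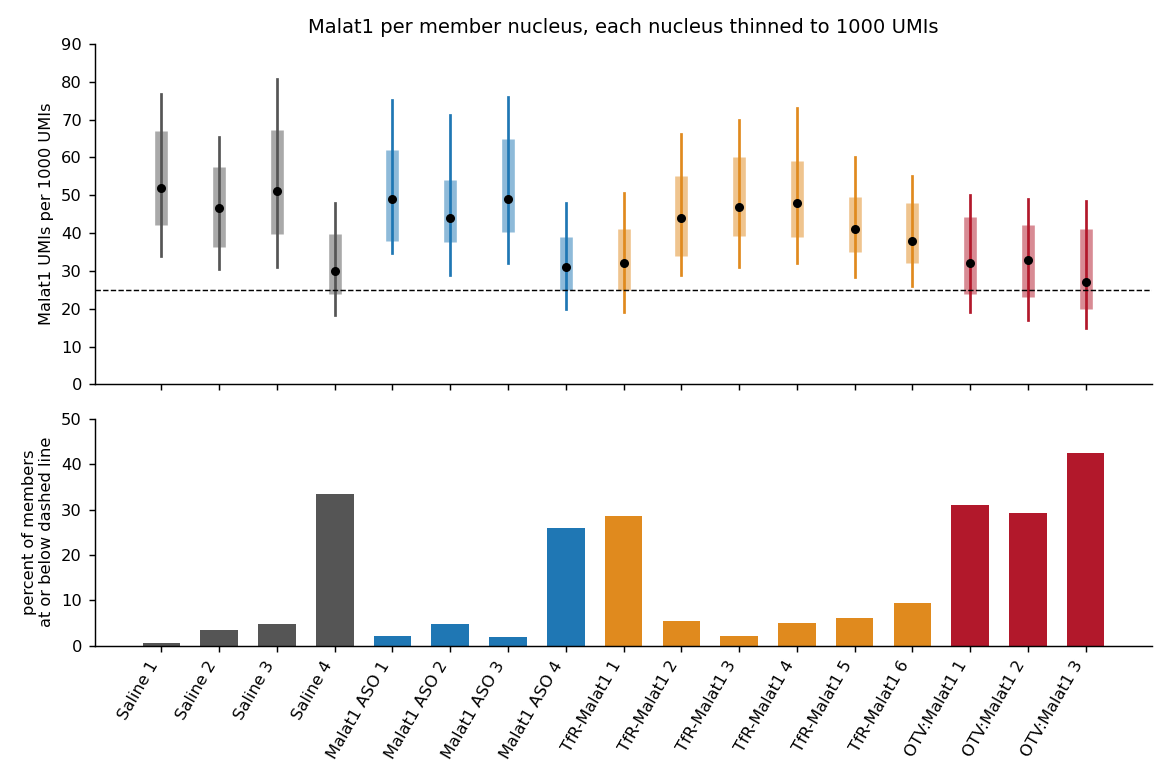
Upper panel: Malat1 UMIs per 1000 UMIs of a member nucleus (vertical axis) in each animal, with the median (dot), the interquartile range (thick bar), and the 10th to 90th percentile (thin line); the dashed line is the limit of 25. Lower panel: percent of members at or below that limit, which is 29.3% or more in each OTV:Malat1 animal and also 25.8% or more in Saline 4, Malat1 ASO 4 and TfR-Malat1 1.

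The share of members differed by less than the spread between animals. Saline averaged 1.80% ± 0.712 (SD, n = 4) of eligible neurons, Malat1 ASO averaged 1.58% ± 0.392 (SD, n = 4), TfR-Malat1 averaged 1.68% ± 0.593 (SD, n = 6) and OTV:Malat1 averaged 1.43% ± 0.628 (SD, n = 3). Set against Saline, these were -0.222, -0.114 and -0.367 percentage points away, with exact p of 0.686, 0.771 and 0.514. Without Saline replicate 1 the differences were 0.111, 0.219 and -0.034 points. Nuclei were counted after dissociation and sorting, and the rule depends on depth, so a share of nuclei is not a count of cells in the tissue.

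Of the 10259 genes tested in the members, 0% were called in each comparison against Saline at an edgeR adjusted p under 0.05, and 2.54%, 3.24% and 4.22% had an unadjusted p under 0.05 in Malat1 ASO, TfR-Malat1 and OTV:Malat1. DESeq2 also called 0 genes in these comparisons, Malat1 included. OTV:Malat1 against TfR-Malat1 called 0.00975% of genes, which was 1 gene, with 7.39% at an unadjusted p under 0.05. Of the 17 thalamic identity genes outside the rule tested in OTV:Malat1 against Saline, 0 passed, their median log2 fold change was 0.04 against 0.00 over all genes, and they ranged from -0.53 to 0.47. Lef1 averaged 694.8 ± 81.7 CPM (SD, n = 4) for Saline animals and 825.5 ± 141.8 CPM (SD, n = 3) for OTV:Malat1 animals.

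Gabra5, encoding the alpha-5 subunit of GABA-A receptors (chromosome 7, 57407672 to 57510059, minus strand, mm10), was the gene called. It stood at 11.8, 13.2 and 10.97 CPM in the OTV:Malat1 animals and at 24.5, 33.9, 41.8, 35.5, 24.3 and 41.4 CPM in the TfR-Malat1 animals, with no overlap. In Saline it was 40.3, 28.4, 32.2 and 23.2 CPM, and in Malat1 ASO 25.8, 19.1, 21.8 and 18.9 CPM. The log2 fold change of OTV:Malat1 against TfR-Malat1 was -1.49 (SE 0.26, edgeR adjusted p = 0.0404), and against Saline it was -1.42 (SE 0.27, edgeR adjusted p = 0.176). Groups did not overlap, with the first the lower, for 1.41% of genes in Malat1 ASO against Saline, 0.409% in TfR-Malat1 against Saline, 2.35% in OTV:Malat1 against Saline and 1.15% in OTV:Malat1 against TfR-Malat1. The value of Gabra5 rests on 31 UMIs in the 3 OTV:Malat1 animals. Gabra5 was higher in the members of clusters 1 and 4 (52.4 CPM) than in those of cluster 12 (19.1 CPM), and the mean share of members in cluster 12 was 83.2% in OTV:Malat1 and 69.9% in TfR-Malat1, or 77.2% without TfR-Malat1 replicate 3. Within cluster 12 it stood at 8.96 ± 2.50 CPM (SD, n = 3) in OTV:Malat1 and 23.6 ± 10.1 CPM (SD, n = 6) in TfR-Malat1, with a log2 fold change of -1.54 and an adjusted p of 0.557 in edgeR. There the groups overlapped, with a highest OTV:Malat1 animal of 10.8 CPM and a lowest TfR-Malat1 animal of 10.4 CPM. In clusters 1 and 4 it stood at 36.5 ± 14.9 CPM (SD, n = 3) on 10 UMIs and 64.3 ± 23.7 CPM (SD, n = 6) on 75 UMIs. The call was also lost with the batch as a block (-1.51, edgeR adjusted p = 0.115), without TfR-Malat1 replicate 2, 3 or 6, and without any 1 of the OTV:Malat1 animals. Over all animals left out in turn the log2 fold change stayed between -1.58 and -1.39.

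**Figure D5:**
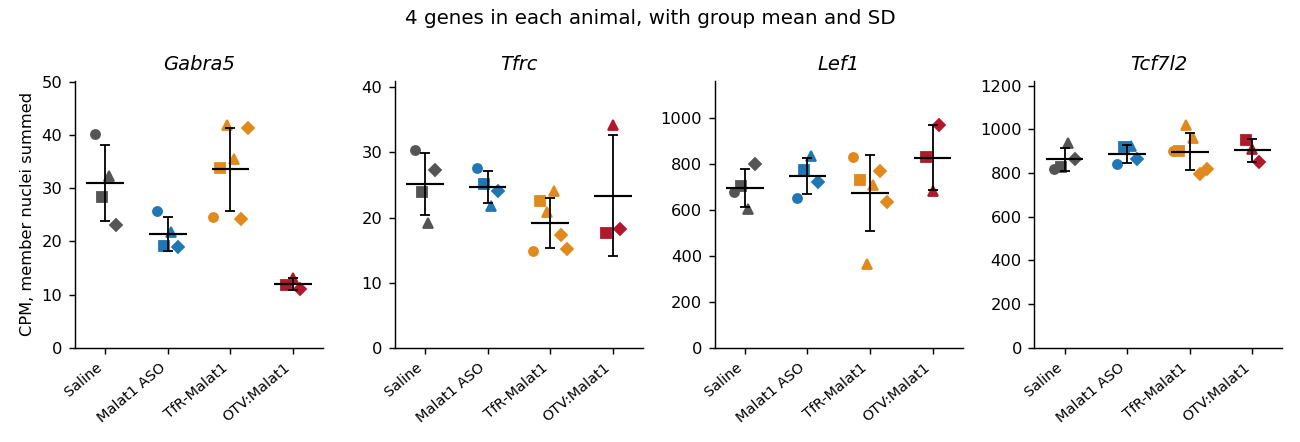
CPM of Gabra5, Tfrc, Lef1 and Tcf7l2 in the summed members of each animal (vertical axes from 0); shapes are deposited batches as in the plot of Malat1 by animal, and black lines are group means with SD. Gabra5 in the OTV:Malat1 animals lies between 10.97 and 13.2 CPM, below all other animals, while Lef1 and Tcf7l2, the latter used by the rule, overlap among the groups.

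A pair of other receptor genes, chosen after their values were seen, had different means in the 2 conjugate groups without passing the test. Grm8 was at 128.9 CPM in OTV:Malat1 and 188.7 CPM in TfR-Malat1 (log2 fold change -0.59, edgeR adjusted p = 0.327) and Gabrd was at 123.1 and 74.3 CPM (0.68, edgeR adjusted p = 0.279). Grm8 was higher, and Gabrd lower, in clusters 1 and 4 than in cluster 12, as medians over animals. The part of the share in cluster 12 in these values was not tested, except for the Gabra5 values within cluster 12.

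Tfrc, encoding the transferrin receptor, was low in the members at 22.6 CPM, close to the 23.1 CPM of all other neurons. These animals carry the human receptor and the mouse build mm10 was used. How much knock-in sequence was counted as Tfrc was not tested, so this level need not measure the receptor that the conjugates bind. Saline averaged 25.2 ± 4.81 CPM (SD, n = 4), Malat1 ASO averaged 24.7 ± 2.41 CPM (SD, n = 4), TfR-Malat1 averaged 19.2 ± 3.89 CPM (SD, n = 6) and OTV:Malat1 averaged 23.4 ± 9.33 CPM (SD, n = 3). The difference of TfR-Malat1 from Saline was -0.44 on the log2 scale (SE 0.21, edgeR adjusted p = 0.999). Neat1, the paraspeckle RNA and neighbour of Malat1, had 53 UMIs in all members together, 1 to 7 per animal, too few to test. Of the 14 paraspeckle and speckle protein genes, 8 RNase H and RNA decay genes, 6 p53 target genes and 2 interferon response genes tested, 0 passed in OTV:Malat1 against Saline. Of all 10259 genes tested, Malat1 included, 0 passed in that comparison, so this says nothing of these lists in particular.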

How the data were processed

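Single-nucleus RNA libraries of 17 mice were used. The deposited matrix holds raw UMI counts per gene and nucleus, and per the submitters' processing notes Cell Ranger 6.0.1, Seurat 4 and the mm10 build were used. The cell label, doublet call, cluster number and batch per nucleus were also deposited, with a label score and a doublet score given as a fraction by the authors; the sources used here do not name the label reference or the doublet caller. The 9 other columns of that table were not used. Members and gene lists were chosen with earlier results of these data known. Deposited doublets were left out, 43273 of them among neuron-labelled nuclei outside cluster 13. How many of these met the UMI limits of the rule was not counted. No deposited nucleus held more than 4500 genes.

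UMI counts were summed per animal, since the animal is the replicate, and tested with edgeR 4.0.16 (filterByExpr, TMM normalization, quasi-likelihood test, Benjamini-Hochberg adjustment at 0.05, all 17 animals in 1 fit with group as the only term). Single values were tested with exact permutation of animals (scipy 1.17.1) at a pseudocount of 1. DESeq2 1.42.0 was an alternative. The genes named were Malat1, Neat1 and Tfrc, genes past the threshold, the 25 most enriched and listed genes; others were picked after seeing their values. The edgeR script was tested on simulated data. Annotation coordinates are from GENCODE M21, which matched 97.6% of gene names. Numbers in the titles did not pair animals: same-number deviations across groups correlated at a median of -0.033, and 5 of 21 pairs passed 0.1. Animals of the same batch correlated at a median of 0.125, and 15 of 27 pairs passed 0.1. Those of different batches correlated at a median of -0.040, and 9 of 79 pairs passed 0.1. Nothing in the labels names litters or cages. The main fit had no term for the batch, so its p-values rest on a spread between animals that includes the spread between batches. Some results on single genes are not reported here.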

Additional observations from a re-analysis of the deposited data

Results flagged for a closer look

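The 3 treatment groups of 4 or 6 animals were examined for a value far from the rest in 5 measures, 15 combinations that share the same animals. The share of members low in Malat1 had such an animal in each of the 3 groups, and no other combination had one. The rule was Dixon's test, which sets the gap beside the farthest value against the whole range. By chance it flags about 1 in 20 single combinations of normally spread values, and that spread was not tested. Saline replicate 4 stood at 33.3%, against 0.518% to 4.84% in the other Saline animals. Malat1 ASO replicate 4 stood at 25.8%, against 2.00% to 4.69%. TfR-Malat1 replicate 1 stood at 28.6%, against 2.22% to 9.41%. The first and second were in batch 4, whose TfR-Malat1 animals stood at 6.09% and 9.41%, and the third was in batch 1. The same 3 animals had the lowest Malat1 share of their group in other Slc17a6 neurons and in cortical-type neurons. The library labels of these animals were kept as given, and whether they are right was not tested.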

How the results depend on the processing

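Of 223 values recomputed under settings other than leaving out an animal, 189 kept their direction and their side of the threshold, 12 changed sign, 11 counts moved by over 1.5 times, 7 lost and 4 gained a call. The cause was not tested. The cluster 12 settings, the permutation of shares within batches, the limit for low Malat1 set on 3 Saline animals, and the choice to follow Gabra5 through the settings, were added after seeing the data. No difference that changed sign had passed its test. Malat1 ASO against Saline became 0.012 (log2(CPM + 1) of Malat1) and 0.0603 percentage points (share of neurons) in all cluster 12 neurons, and -0.029 (edgeR) and 3.87 points (low share) under stricter thresholds. TfR-Malat1 against Saline became -0.0018 in cluster 12 members and -0.016 in all cluster 12 neurons (members minus other Slc17a6 neurons) and 0.787 points in the batch block (low share). OTV:Malat1 against Saline, members minus cortical-type neurons, became -0.029 under stricter thresholds, -0.0091 in cluster 12 members and -0.020 in all cluster 12 neurons. The share of neurons turned from -0.367 to 0.405 points (OTV:Malat1 against Saline) and from -0.253 to 0.460 points (against TfR-Malat1) in all cluster 12 neurons.

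Permuting animals within the batch block cannot go below p = 0.111 for OTV:Malat1 against TfR-Malat1, so the 2 unadjusted calls lost there (-0.56 for Malat1, 28.6 points for the low share, exact p = 0.111 for both) say nothing of stability. Stricter thresholds brought members minus cortical-type neurons below 0.05 for TfR-Malat1 against Saline (0.11, exact p = 0.0286) and OTV:Malat1 against TfR-Malat1 (-0.14, exact p = 0.0476), and members minus other Slc17a6 neurons for the latter (-0.20, exact p = 0.0238). With no filter on low counts edgeR called 5, 20, 18 and 124 genes other than Malat1 in the comparisons of Malat1 ASO, TfR-Malat1 and OTV:Malat1 with Saline and of OTV:Malat1 with TfR-Malat1, and Malat1 passed in the last (-0.54, edgeR adjusted p = 0.0425). In the last, DESeq2 called 6 genes and the replicate block by title number 21; the batch block, the 2 groups alone, stricter thresholds and both cluster 12 settings called 0. With the batch block edgeR put Malat1 at -0.59 for OTV:Malat1 against Saline and at -0.55 for OTV:Malat1 against TfR-Malat1 (edgeR adjusted p = 0.365). Gabra5 ranged from -2.12 to -0.87 over these settings, with edgeR adjusted p up to 0.904. Its call was kept in 6 settings and lost in 5.

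Leaving out 1 animal at a time gave 0 to 6 called genes for OTV:Malat1 against TfR-Malat1 and 0 for the other 3 comparisons. For Malat1 ASO against Saline, the log2(CPM + 1) difference of Malat1 ranged from -0.186 to 0.145, edgeR's value from -0.121 to 0.141, members minus other Slc17a6 neurons from 0.023 to 0.114, members minus cortical-type neurons from 0.0067 to 0.057, the share of neurons from -0.408 to 0.111 points and the low share from -7.58 to 5.74 points. For TfR-Malat1 against Saline the same values ranged from -0.238 to 0.020, -0.201 to 0.017, -0.014 to 0.035, 0.048 to 0.098, -0.300 to 0.219 points and -4.92 to 6.51 points. For OTV:Malat1 against Saline they ranged from -0.721 to -0.464, -0.736 to -0.518, -0.151 to -0.071, -0.051 to 0.085, -0.724 to -0.034 points and 19.6 to 31.3 points. For OTV:Malat1 against TfR-Malat1 they ranged from -0.564 to -0.404, -0.606 to -0.481, -0.157 to -0.077, -0.130 to 0.0055, -0.610 to -0.021 points and 20.7 to 28.6 points.

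With 31 Gabra5 UMIs in the OTV:Malat1 members and 85 to 202 nuclei per animal, depth limits what can be seen for genes of low level, and 3 OTV:Malat1 animals limit the smallest p.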
